A study of Mus musculus with 3 samples.

Results

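The open chromatin of corticospinal motor neurons (CSMN) is described here from the ATAC-seq peak list of the single CSMN library of the series, CSMN 1. All 98067 peaks of that list were taken, of 390864 peaks in the 3 lists of the series, and no peak was chosen by its value. The other lists came from callosal projection neurons (CPN), with 134018 peaks in CPN 1 and 158779 in CPN 2. All 3 libraries came from mouse brain, from viable cells sorted by FACS at 50000 per biological replicate. The labels name the cell types only. For the mice, genotype, strain, age, sex and any treatment are not given in the sources used here, nor is the marker used for sorting. With 1 CSMN library there was no replicate check on any CSMN value, and no test between the cell types was made. Where a CSMN value is set beside the CPN values, the gap between CPN 1 and CPN 2 shows how far 2 libraries of 1 cell type differed.

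CSMN are excitatory neurons of layer V of the neocortex whose axons run to the spinal cord and carry the output for voluntary movement. Their identity depends on the transcription factors Fezf2 and Bcl11b (also called CTIP2), while CPN connect the hemispheres. In ATAC-seq a transposase cuts DNA that is free of nucleosomes, so that peaks mark promoters and candidate enhancers. Many promoters rich in CpG are open in most cell types, whereas distal elements differ more between cell types. An open site is not a measure of transcription.

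The promoters in this paragraph show what was and was not open in CSMN. Each is the 250 bases before a start site listed by RefSeq on GRCm38.p6 (the build named mm10), 5′ to 3′ on the strand of the gene, with CpG in capitals. The first is that of Fezf2 (chr14:12345866-12346115, minus strand), the factor that specifies subcerebral neurons. The next are the promoters of those genes of the CSMN and subcerebral neuron list that had the highest fold over a listed start, in that order. They belong to Diaph3 (chr14:87141225-87141474, minus strand), which encodes a formin that builds actin filaments, Lmo4 (chr3:144205256-144205505, minus strand), a LIM-only transcriptional cofactor, Etv1 (chr12:38779832-38780081, plus strand), an ETS transcription factor of layer V, and Ephb1 (chr9:102354694-102354943, minus strand), a receptor for ephrin-B ligands. The last were picked by name for contrast after their values were seen, Alb (chr5:90460620-90460869, plus strand), which encodes albumin of the liver, and Ins1 (chr19:52264047-52264296, plus strand), which encodes insulin of the pancreas.
Fezf2: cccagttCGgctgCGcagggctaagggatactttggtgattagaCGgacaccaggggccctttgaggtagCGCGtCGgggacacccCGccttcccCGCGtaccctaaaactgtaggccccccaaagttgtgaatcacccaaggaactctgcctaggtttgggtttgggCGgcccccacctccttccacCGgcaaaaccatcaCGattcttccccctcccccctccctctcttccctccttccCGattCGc
Diaph3: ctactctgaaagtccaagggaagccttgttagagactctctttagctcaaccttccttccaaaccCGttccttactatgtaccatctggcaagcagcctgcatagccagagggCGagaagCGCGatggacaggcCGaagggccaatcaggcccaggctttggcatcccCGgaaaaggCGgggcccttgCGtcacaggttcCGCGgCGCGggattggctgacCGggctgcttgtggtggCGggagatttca
Lmo4: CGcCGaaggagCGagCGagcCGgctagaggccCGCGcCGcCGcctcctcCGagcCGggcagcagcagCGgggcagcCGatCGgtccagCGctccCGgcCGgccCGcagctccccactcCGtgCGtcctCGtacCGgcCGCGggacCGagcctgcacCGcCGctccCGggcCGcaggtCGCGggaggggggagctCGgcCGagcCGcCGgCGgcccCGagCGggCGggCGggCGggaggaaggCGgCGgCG
Etv1: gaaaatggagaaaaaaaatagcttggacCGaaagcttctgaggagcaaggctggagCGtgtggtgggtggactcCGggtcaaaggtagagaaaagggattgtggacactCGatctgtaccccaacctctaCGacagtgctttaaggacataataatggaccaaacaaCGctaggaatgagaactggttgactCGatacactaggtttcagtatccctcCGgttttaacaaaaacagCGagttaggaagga
Ephb1: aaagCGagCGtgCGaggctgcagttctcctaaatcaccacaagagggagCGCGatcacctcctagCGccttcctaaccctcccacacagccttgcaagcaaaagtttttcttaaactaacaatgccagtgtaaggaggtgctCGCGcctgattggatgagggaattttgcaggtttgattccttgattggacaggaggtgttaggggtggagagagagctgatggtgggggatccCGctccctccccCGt
Alb: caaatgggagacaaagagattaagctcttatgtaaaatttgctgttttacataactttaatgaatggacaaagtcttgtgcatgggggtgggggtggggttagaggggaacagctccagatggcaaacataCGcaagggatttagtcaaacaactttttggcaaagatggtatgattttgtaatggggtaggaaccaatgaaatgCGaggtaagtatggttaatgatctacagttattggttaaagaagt
Ins1: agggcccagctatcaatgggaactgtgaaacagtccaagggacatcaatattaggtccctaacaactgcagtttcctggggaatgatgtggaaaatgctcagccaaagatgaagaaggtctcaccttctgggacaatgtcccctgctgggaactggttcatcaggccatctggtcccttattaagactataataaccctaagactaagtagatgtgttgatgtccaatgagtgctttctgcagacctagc
A CSMN peak covered the whole of the first 5 sequences, and neither Alb nor Ins1 had a CSMN peak within 1 kb of an end of the gene. The fold, the authors' enrichment at the summit of a peak, was 16.9 over the Diaph3 start, among the top 0.492% of the list. It was 9.93 at Lmo4, 9.87 at Etv1 and 9.38 at Ephb1. At Fezf2 it was 2.97, which left the peak at 46.9% from the top of the list. The number of CpG in the 250 bases was 44 at Lmo4, 14 at Diaph3, 14 at Fezf2, 10 at Ephb1 and 9 at Etv1, against 2 at Alb and 0 at Ins1. The sequences of Diaph3 and Ephb1 each held 2 CCAAT boxes (CCAAT, either strand), and that of Lmo4 held 3 GC boxes (GGGCGG, either strand). The summit lay 38 bp upstream of the start at Diaph3 and 49 bp at Ephb1, while the wide peak at Etv1, 2357 bp, had its summit 1288 bp upstream.

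The CSMN list covered 39.7 Mb and was made mostly of narrow and weak peaks. The median width was 279 bp, with 178 bp and 506 bp at the quartiles, and 6.99% of peaks were over 1 kb wide. The median fold was 2.86, 10% of the peaks exceeded 7.60, and the highest value was 52.0. A −log10 q of at least 5 was reached by 55.2% of the CSMN peaks, compared with 72.4% in CPN 1 and 65.4% in CPN 2. The sources used here give no number of reads. The depth of the library is unknown, and its part in any missing peak was not tested. Peaks on chromosomes 1 to 19, X and Y numbered 97866, and those were placed against genes.

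Most strong CSMN sites lay at or inside genes, and most weak ones away from gene ends. A peak was placed at a gene end when it reached within 1 kb of either end of a protein-coding gene body, because the gene table holds no strand. By this rule 16.7% of CSMN peaks (95% Wilson interval 16.4 to 16.9, for counting error only, as all intervals here) were at a gene end. A further 40.4% had the summit inside a gene body, so that 50.8% of all summits were inside one with gene-end peaks counted. Measured from the summit, as are the distances from genes in what follows, 7.67% lay within 10 kb of a gene, 20.1% at 10 to 100 kb and 15.2% at over 100 kb from any protein-coding gene. Peaks at gene ends had a median fold of 6.16 and a median width of 767 bp, while the other places had median folds of 2.69 to 2.95 and widths of 237 to 256 bp. In CPN 1 and CPN 2 the gene-end shares were 13.3% and 12.7% and the shares over 100 kb from a gene were 12.4% and 11.7%. Both CSMN shares were therefore above both CPN values, in a list that was shorter than either CPN list.

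When the CSMN peaks were ranked by fold and split into 10 equal groups, the place of the peaks changed with strength. In the strongest group, with folds of 7.60 to 52.0, 66.6% of peaks were at a gene end (65.7 to 67.5) and the median width was 907 bp. The share fell to 30.7% in the second group, 15.8% in the third and 9.35% in the fifth, and it was 6.58% in the weakest, where the median width was 158 bp. Peaks over 100 kb from a gene made up 4.67% of the strongest group and 17.1% of the weakest. The same decline in CPN 1 and CPN 2 ran from 57.9% and 51.8% to 7.91% and 9.54%. The strongest CSMN peaks were also found almost without exception in CPN. Of the 9807 peaks in the strongest group, 18 (0.184%) had no overlapping peak in either CPN list, against 1.27% in the second group, 23.2% in the sixth and 61.1% in the weakest. The 2 CPN libraries showed a like gradient against each other, with 1 list searched in place of 2. The share of CPN 1 peaks absent from CPN 2 was 0% in the strongest group and 69.1% in the weakest. For CPN 2 peaks absent from CPN 1 it was 0.0882% and 67.1%. The plot of the 10 groups gives both gradients for CSMN.

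**Figure D1:**
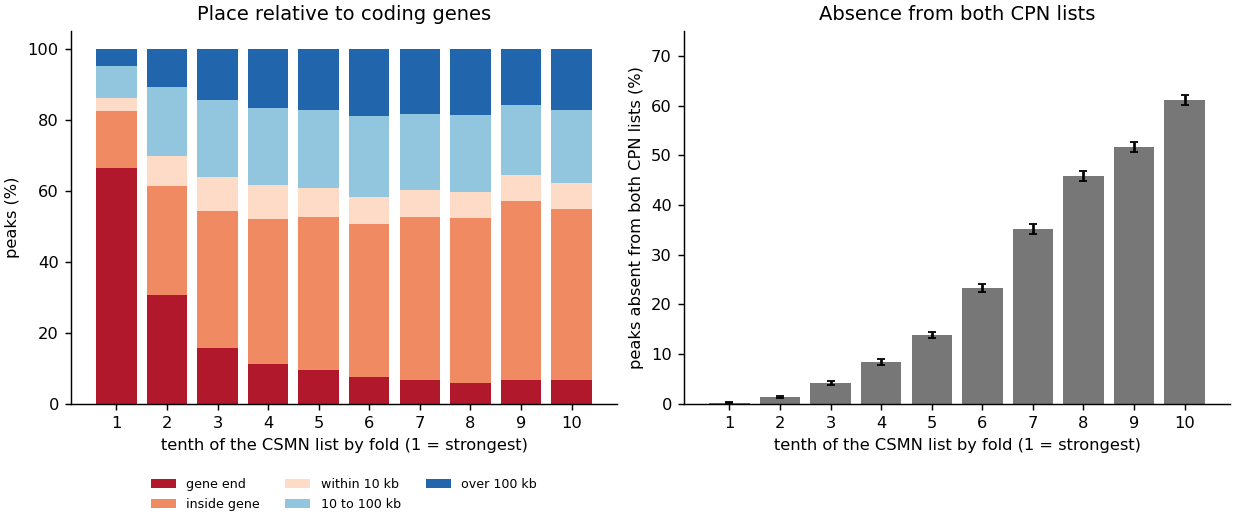
CSMN peaks in 10 equal groups by the authors' fold (group 1 strongest). The left panel stacks the percentage of peaks in each place relative to protein-coding genes. The right panel gives the percentage of peaks absent from both CPN lists, with 95% Wilson intervals as bars. The gene-end share goes from 66.6% to 6.58% and the absent share from 0.184% to 61.1%.

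At genes, the openness of CSMN chromatin sat on the start and rarely on the other end. The start sites of RefSeq gave the strand for 17492 protein-coding genes (79.9%). Of these genes, 63.4% had a CSMN peak within 1 kb of the start end and 13.1% within 1 kb of the other end. In 13110 genes with a body over 4 kb and no listed start near the other end, the shares were 70.7% and 10.2%, and the median folds were 8.43 and 2.86. The shares for these genes were 73.1% and 15.3% in CPN 1 and 73.8% and 17.4% in CPN 2, so the CSMN value was lower at both ends. Around all 32817 listed starts, CSMN summits were densest in the 50 bp just upstream of the start, with 2746 summits, and the median position was 24 bp upstream. In these counts a summit near several listed starts was counted once for each. Of the 19320 pairs of a CSMN summit and a start within 1 kb, 42.7% lay within 100 bp and 61.0% within 200 bp. In CPN 1 and CPN 2 the same bin was the fullest, with 3116 and 3513 summits, and 44.4% and 42.0% of the pairs lay within 100 bp.

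**Figure D2:**
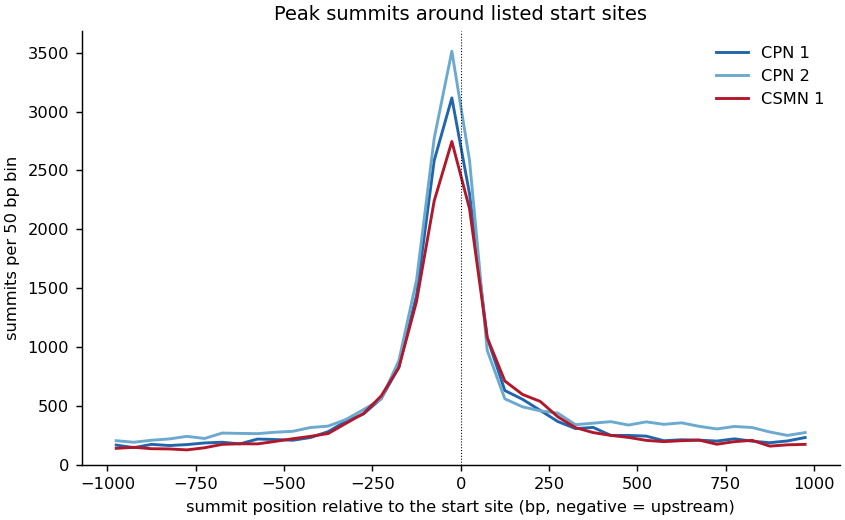
Number of peak summits per 50 bp bin (vertical axis) by distance from listed start sites in bp (horizontal axis, negative values upstream), 1 line for each library. A summit counts once for each listed start within 1 kb. All 3 lines peak in the bin from 50 bp upstream to the start, with 2746 summits in CSMN 1, 3116 in CPN 1 and 3513 in CPN 2.

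Promoters with many CpG were open in CSMN and promoters with few were mostly not. Of 21263 promoter windows of 300 bases (250 before and 50 after a start), 61.1% were overlapped by a CSMN peak. Among windows with 0 to 2 CpG the share was 5.18% (4.52 to 5.93), with 6 to 10 CpG it was 48.7%, and with 21 or more it was 96.4% (95.9 to 96.8). The median fold of the peaks rose along these bins from 3.04 to 9.10. A peak of the strongest group lay over 0.286% of the windows with 0 to 2 CpG and over 61.0% of those with 21 or more. The median CpG count was 3 in windows without a CSMN peak and 21 in windows with one. The covered promoters printed earlier had 9 to 44 CpG in their 250 bases.

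**Figure D3:**
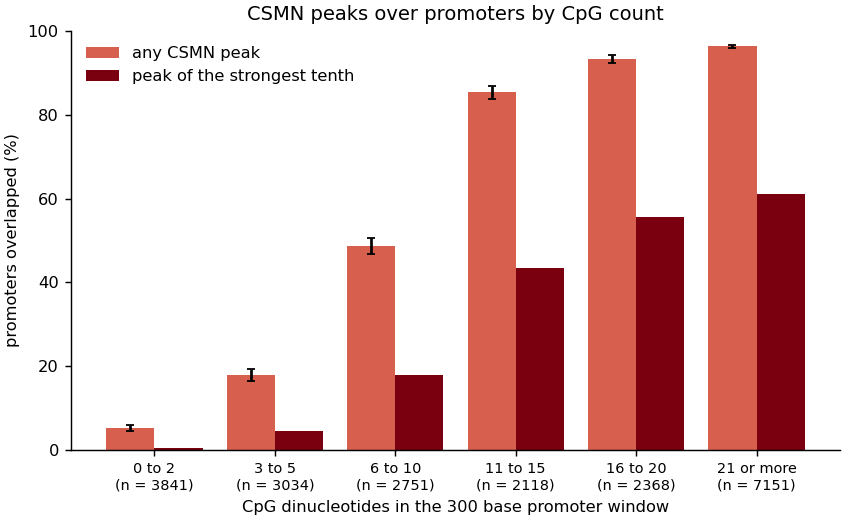
Percentage of 300 base promoter windows overlapped by any CSMN peak (light bars, with 95% Wilson intervals) and by a peak of the strongest of the 10 groups (dark bars), by number of CpG in the window. The share rises from 5.18% at 0 to 2 CpG to 96.4% at 21 or more.

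Short motifs also differed between promoters by the strength of the CSMN peak over them. All were searched on both strands as exact letters, and a match is a description and not a binding site. The ETS site CCGGAAGT was in 5.15% of all 21263 windows, in 0.822% of those without a CSMN peak and in 10.5% of those under a peak of the strongest group. The NRF1 half-site GCATGCGC was in 3.52%, 0.713% and 6.96% of the same sets, the YY1 site AAGATGGC in 3.05%, 1.22% and 5.56%, and the CRE TGACGTCA, the site of CREB, in 2.23%, 0.605% and 4.05%. The GC box GGGCGG, read by Sp1, was in 46.2%, 13.6% and 70.0%. The CCAAT box had no such order, with 38.2%, 38.4% and 44.0% in these sets but 31.1% under a peak of the second group and 29.2% under one of the third to the fifth. The TATA box TATAAA went the other way, with 12.6%, 22.7% and 5.34%, as did the AP-1 site TGANTCA, with 6.99%, 11.2% and 3.37%, and CAGATG, an E-box of proneural factors, with 14.6%, 20.5% and 9.40%. The ETS, NRF1, CRE and GC box letters each hold a CpG, and the CpG counts of the sets differed as given before. The part of base composition in these shares was not tested. The 132 promoters under a CSMN peak that was absent from both CPN lists had a median of 4 CpG and looked unlike the other open promoters, with a GC box in 18.9% and a TATA box in 12.9%.

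The label of the library was checked against the 5 markers Fezf2, Bcl11b, Crym, Ldb2 and Sox5. Each of the 5 had at least 1 CSMN peak at a gene end, which 66.7% of the 21887 protein-coding genes had, so that presence alone is common. The markers and 10 kb on either side held 80 CSMN peaks, against 146 in CPN 1 and 172 in CPN 2, and 13 of the 80 (16.2%) were absent from both CPN lists, where the share over the whole CSMN list was 24.5%. The peaks at the markers did not separate CSMN from CPN, since every marker had fewer peaks in CSMN than in CPN 2 and no more than in CPN 1. The sort therefore could not be checked from these peaks, and the name of the list rests on the label.

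Fezf2 (chromosome 14, 12338992 to 12346803) had 3 CSMN peaks and none that was absent from CPN. The strongest, 1151 bp wide with a fold of 4.30, lay at 12337494 to 12338644, beyond the end of the gene that is farther from the start, and the overlapping CPN 1 and CPN 2 peaks had folds of 5.99 and 6.68. Around the start the gene had a peak at 12345494 to 12346734 with a fold of 2.97 and another at 12344608 to 12345233 with 2.76. A single CPN 1 peak of 2311 bp spanned both of these.

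Bcl11b (chromosome 12, 107910403 to 108004145), which encodes the zinc finger factor CTIP2, had 12 CSMN peaks, against 17 in CPN 1 and 22 in CPN 2. The highest was at the start, at 108003816 to 108004281, with a fold of 7.16 (9.35 and 8.47 in CPN 1 and CPN 2). A peak at 108006013 to 108006571, with its summit 2293 bp outside the body and upstream of the start, had a fold of 6.27, and the overlapping CPN peaks had 12.1 and 11.3. The 2 CSMN peaks that neither CPN list held were among the weakest in the list, 155 bp and 179 bp wide with folds of at most 2.17.

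Crym (chromosome 7, 120186380 to 120201989), which encodes the thyroid hormone binding protein mu-crystallin, had 2 CSMN peaks, against 9 in CPN 1 and 10 in CPN 2. The peak at a gene end, at 120201397 to 120202032, had a fold of 2.96 (3.15 and 2.44 in CPN 1 and CPN 2). The other, at 120203856 to 120204195 with a fold of 5.66 (10.7 and 13.9), overlapped the neighbouring gene Abca14. Crym thus had the fewest CSMN peaks of the 5 markers.

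Ldb2 (chromosome 5, 44435955 to 44799759), a cofactor of LIM-domain transcription factors, had 20 CSMN peaks and the highest fold of the 5 markers, 10.4 inside the gene at 44538050 to 44538397. The peak at the gene end at 44799248 to 44799793 reached 6.28 (12.9 and 14.4 in CPN 1 and CPN 2), and a peak with its summit 8366 bp outside the body had 9.32. Of its peaks, 1 was absent from CPN, at 44676468 to 44676640 with a fold of 2.95. Sox5 (chromosome 6, 143828425 to 144782287), a SOX factor gene of deep-layer neuron development, had 43 CSMN peaks along a body of 954 kb, against 82 in CPN 1 and 97 in CPN 2. Its highest fold was 6.12, in a peak of 1110 bp at 144056344 to 144057453, and the median was 2.60. At Sox5, 10 peaks were absent from both CPN lists, the strongest of them with a fold of 2.69. The plot of folds at the markers shows the CPN values of overlapping peaks mostly above the CSMN values, as the medians of the whole lists also were (3.82 in CPN 1, 3.68 in CPN 2 and 2.86 in CSMN).

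**Figure D4:**
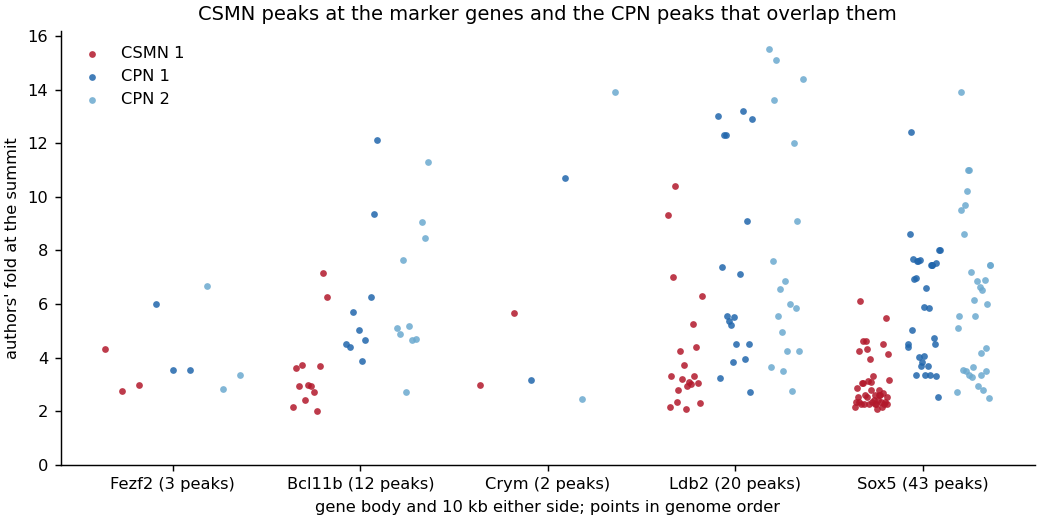
The authors' fold (vertical axis) of each CSMN peak at the 5 marker genes, with 10 kb on either side, and of the highest overlapping peak in CPN 1 and CPN 2, in genome order within a gene. CSMN folds reach 4.30 at Fezf2, 7.16 at Bcl11b, 5.66 at Crym, 10.4 at Ldb2 and 6.12 at Sox5.

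Genes of all cortical projection neuron classes were open in CSMN, whichever class they are known for. Of 29 CSMN and subcerebral neuron genes, 27 had a CSMN peak at a gene end (background 66.7%), 26 of them with a −log10 q of at least 5 (background 61.8%), and the median fold was 6.06. The counts were 23 of 26 for CPN and upper-layer genes, with a median of 7.07, and 14 of 16 for corticothalamic and subplate genes, with 4.83. Over all protein-coding genes with such a peak the median was 7.81, so the medians of all 3 lists lay below it. In CPN 1 and CPN 2 the CSMN genes counted 27 and 28, with medians of 9.60 and 8.46, and all genes stood at 69.2% and 70.3%. Of the summits inside CSMN-list genes, 48 of 263 (18.3%) were absent from both CPN lists, and 43 of 232 (18.5%) inside CPN-list genes, both below the 24.5% of the whole list. Lmo4 is in both lists.

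The CSMN-list genes with the highest gene-end folds were Diaph3 (16.9), the potassium channel gene Kcnn2 (10.2), Lmo4 (9.93) and Etv1 (9.87). At Kcnn2, which encodes a calcium-activated channel, the CPN folds were 13.3 and 16.3. No gene-end peak was found at Cdh13, a cadherin gene, and Cacna1h, a T-type calcium channel gene. Inside Cdh13 there were 25 summits with folds up to 3.75, against 69 in CPN 1 and 90 in CPN 2, and the highest peak in Cacna1h had a fold of 4.46 at 2.23 kb from an end. In the CPN list the highest were Btg1, an antiproliferative gene (14.2), Tmtc4 (12.6), the ephrin receptor gene Epha3 (12.4) and the nuclear receptor gene Rorb (11.5). Inhba, which encodes an activin subunit, and Mef2c, a MADS-box factor gene, had no gene-end peak but had one at a listed start inside the body, with folds of 9.29 and 5.97. In the corticothalamic list Tle4, a corepressor gene, led with 14.8, followed by the nuclear receptor gene Nr4a2 (9.79), Zfpm2 (9.65) and Ccn2 (8.61), while Crhr1 and Sla had no gene-end peak, although Crhr1 had one at a listed start with a fold of 3.56.

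Neuronal and axon guidance genes were as widely open. Of 26 pan-excitatory and pan-neuronal genes, 24 had a gene-end peak, led by the synaptic vesicle genes Syt1 (16.4) and Syn1 (13.7) and the RNA-binding protein gene Elavl4 (13.7), with Stmn2, a tubulin-binding protein of growing axons, at 11. Rbfox3, the gene of the antigen NeuN, and Mapt, which encodes tau, had none, although Mapt had a peak with a fold of 9.31 at 1.90 kb from an end. In Rbfox3 there were 18 summits in CSMN, 70 in CPN 1 and 61 in CPN 2. Of 32 axon guidance genes, 30 had a gene-end peak, with Epha7 (13.4), Sema3c (10.9), Epha5 (9.81) and Unc5d (9.65) highest. Slit2 and Unc5a, a guidance ligand and a netrin receptor, had none there but had peaks at a listed start of 6.37 and 6.27. The axon guidance genes had the most summits in the body of all the lists, with a median of 12 a gene and 49 at Robo1, against a median of 1 over all genes. Many of these genes are long, and the contrast was much smaller per length. The 29 members of the list of at least 20 kb had a median of 5.09 summits per 100 kb, against 4.04 for all genes of that length.

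Genes of other cell types of the cortex were partly open too. Of the interneuron genes 18 of 20 had a gene-end peak, with a median fold of 4.26 and Adarb2 (10.4) and Sox6 (8.30) highest, and Pvalb and Vip without one. Prox1 (6.24) and Reln (6.10) followed. For astrocyte genes the count was 10 of 12, with Glul (10.7) and Aldoc (7.80) highest, followed by Slc1a3 (7.68) and Slc1a2 (6.78), and Gfap and Aqp4 without a peak there. The Aldoc peak lay beyond the gene body, and the fold at the listed start of Aldoc was 2.91. All 16 cortical progenitor genes had one, with a median of 4.71, led by the cell cycle genes Top2a (10.2) and Mki67 (7.44), then Btg2 (7.32) and Vim (7.09). All 13 endothelial and mural genes had one, with a median of 3.14, and Vtn (8.64), Flt1 (4.20), Kcnj8 (3.99) and Kdr (3.84) were highest. Oligodendrocyte lineage genes counted 7 of 12 and microglia genes 7 of 13, both below the 66.7% of all genes. In the first, Olig1 (5.74), Myrf (5.33) and Mbp (4.19) were among the highest, and Sox10, Pdgfra, Mog, Mag and Mobp had no gene-end peak. In the second, Irf8 (6.16), Spi1 (5.18) and C1qc (4.42) were among the highest. The C1qc peak lay beyond the gene body, and C1qc had no peak within 1 kb of its listed start. The microglia genes Aif1, C1qa, C1qb and Itgam had neither a gene-end peak nor a summit in the body. Cx3cr1 and Csf1r had no gene-end peak but held 1 and 3 summits in the body. Other microglia genes, P2ry12 (3.04), Trem2 (2.17) and Tmem119 (2.16), had a gene-end peak. These lists had 9 and 9 (oligodendrocyte) and 9 and 8 (microglia) members with a gene-end peak in CPN 1 and CPN 2. The part of other cells in the sort was not tested.

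Housekeeping genes had the highest median fold, and genes of other organs had a gene-end peak least often. Of 20 housekeeping genes 19 had a gene-end peak, with the highest median fold of the 13 lists (10.2), and Sdha (17.2), Pgk1 (16.4), Canx (15.3) and Eef1a1 (14.6) led. The remaining gene, Actb, had a peak with a fold of 7.39 at 1.90 kb from an end of its listed body. Of 30 genes specific to other organs, 9 (30.0%) had a gene-end peak, the strongest at Apob (8.41), Apoa1 (7.33), Sftpc (6.78) and Krt10 (5.73). Gene ends can lie beside the start of a neighbour. Counting only peaks within 1 kb of a listed start of the gene itself, 2 of 26 organ genes had one, Apob and Myh7, against 67.0% of all genes with a listed start. By this count CSMN genes stood at 17 of 18, CPN genes at 21 of 21, interneuron genes at 15 of 16, oligodendrocyte genes at 3 of 7 and microglia genes at 3 of 8. Endothelial and mural genes stood at 9 of 9, cortical progenitor genes at 14 of 14 and astrocyte genes at 8 of 10. Pan-excitatory and pan-neuronal genes stood at 14 of 17 and axon guidance genes at 24 of 25. Corticothalamic and subplate genes counted 10 of 10 and housekeeping genes 14 of 14. A high share was therefore not particular to neuronal lists.

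Families grouped by symbol, chosen after the lists had been counted, spread from almost closed to fully open. Over all protein-coding genes, 66.7% had a gene-end peak in CSMN. Receptor genes for smell were among the most closed, with a gene-end peak at 47 of 1110 olfactory receptor genes (4.23%) and 9 of 353 vomeronasal receptor genes (2.55%). CPN 1 and CPN 2, with longer lists, had 30 and 31 olfactory and 4 and 2 vomeronasal receptor genes. The CSMN peaks were mostly weak, with a median fold of 2.43 in each of the 2 families, against 7.81 over all protein-coding genes with a gene-end peak. Taste receptor genes counted 1 of 38, prolactin family genes 1 of 25 and keratin genes 16 of 53. All 19 genes with symbols of ionotropic glutamate receptors (Gria, Grid, Grik and Grin) had a gene-end peak, with a median fold of 5.73, and 14 of 19 GABA receptor genes, where the 5 without one were Gabrp, Gabra6, Gabrr1, Gabrr2 and Gabrr3. Potassium channel genes counted 72 of 94. The shares of the GABA receptor genes (73.7%) and the potassium channel genes (76.6%) lay near that of all genes. Ribosomal protein genes (72 of 77), proteasome subunits (38 of 40) and NADH dehydrogenase subunits (38 of 40) had median folds of 10.1 to 10.5. Ephrins and Eph receptors counted 21 of 22 and semaphorins and plexins 27 of 29. The Hox genes, which pattern the body axis and are not part of the cortical programme, stood at 17 of 39 in CSMN, with no fold above 3.82, and at 28 and 30 in CPN 1 and CPN 2. The beta-defensin genes went the other way, with 8 of 42 in CSMN against 0 and 3, at a median fold of 2.60 in CSMN.

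**Figure D5:**
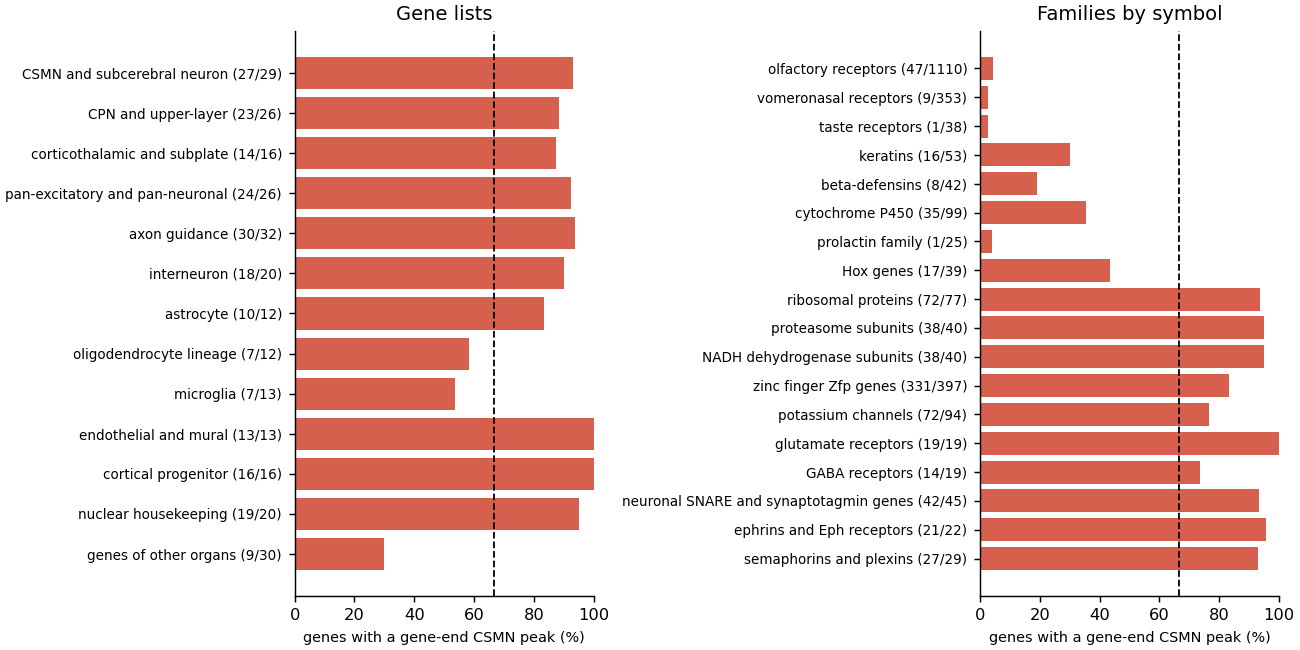
Percentage of genes with a CSMN peak within 1 kb of a gene end, for the 13 gene lists (left) and for families grouped by symbol (right), with counts in brackets. The dashed line is the share of all protein-coding genes, 66.7%. The lists run from 30.0% for genes of other organs to 100% for endothelial and cortical progenitor genes.

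Noncoding genes were open less often than protein-coding genes. A CSMN peak lay within 1 kb of an end of 39.6% of lncRNA genes, 22.0% of miRNA genes, 57.8% of tRNA genes and 9.75% of pseudogenes. Leaving out those within reach of a protein-coding gene end, the shares were 30.3%, 16.1%, 51.3% and 8.98%. The tRNA genes left in, which RNA polymerase III transcribes, had a median fold of 5.69.

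MicroRNAs are short RNAs that repress mRNAs paired to their seed, and the study is about a cluster of them that acts after Fezf2. Of 1005 hairpins in the RefSeq table, 235 (23.4%) had a CSMN peak within 1 kb and 108 (10.7%) were overlapped by one. The mature sequences below, from RefSeq on GRCm38.p6, are those of microRNAs picked by name for their role in neurons or for the cluster, with the seed (bases 2 to 8) in capitals.
miR-193b-3p: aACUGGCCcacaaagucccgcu
miR-365-3p: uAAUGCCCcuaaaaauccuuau
miR-9-5p: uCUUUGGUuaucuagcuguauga
miR-132-3p: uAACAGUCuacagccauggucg
miR-212-3p: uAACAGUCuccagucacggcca
miR-137-3p: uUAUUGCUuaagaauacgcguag
miR-128-3p: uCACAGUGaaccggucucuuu
miR-132-3p and miR-212-3p share a seed and stand next to each other on chromosome 11, and 1 CSMN peak, at 75172742 to 75173874 with a fold of 5.04, covered both hairpins. Their expression is known to follow neuronal activity. All 3 genes of miR-9, a microRNA of neural progenitors and neurons, had a CSMN peak within 1 kb, with folds of 5.96 over Mir9-3, 4.16 near Mir9-2 and 4.08 near Mir9-1. The hairpin of miR-137, which is linked to neuronal maturation, was covered by a peak with a fold of 3.80. Of the 2 genes of miR-128, a microRNA abundant in the brain, Mir128-2 was covered at a fold of 5.03 and Mir128-1 had no CSMN peak within 1 kb. In the cluster of Mir193b and Mir365-1, Mir193b had a CSMN peak within 1 kb with a fold of 3.11 and Mir365-1 had none, and neither had Mir365-2 on chromosome 11. No peak within 1 kb was found for Mir29a, Mir134, Mir409, Mir138-1 and Mir138-2. None of these peaks was absent from both CPN lists.

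The peaks with the highest folds in the CSMN list were of another kind than the promoters that filled the rest of the strongest group. Of the 10 highest, 8 were under 500 bp wide and 1 was at a gene end, while of the 900 peaks ranked next after the first 100, 28 were under 500 bp wide and 765 at a gene end. The highest, of 312 bp with a fold of 52.0, lay on chromosome 8 at 15519795 to 15520106, and the nearest gene, Csmd1, was 372605 bp away. The others were nearest to Lars2 (48.1), Gm15319 (48.0), Zc3h7a (45.7), Gphn (44.0), Rab10 (41.1), Samd9l (39.6), Filip1l (39.3), Chl1 (38.9) and Col19a1 (38.6). All 10 were found in both CPN lists, with folds of 67.8 and 90.5 at the first, and unique mapping of their reads was not tested. Among peaks of at least 500 bp inside a gene and away from its ends, the highest folds included those at Kifap3 (22.2) and Abhd18 (21.6), both at a listed start inside the gene body, as were 8 of the 10 highest. Oxr1 (20.5) and Nol4 (20.2) held the other two. A further set was of peaks at least 500 bp wide, over 100 kb from a gene and overlapping a CPN peak. Its highest were nearest to 9530057J20Rik (20.7), Ogfrl1 (18.6) and Myt1l (18.3). These last were picked after the values had been seen.

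Wide CSMN peaks lay mostly at gene ends. Of the CSMN peaks over 2 kb wide, 176 of 210 (83.8%) were at a gene end, as were 81.7% in CPN 1 and 82.0% in CPN 2. The widest, 3282 bp, lay 395 bp from Adgrl2, which encodes an adhesion receptor of synapses, with a fold of 5.61. Next were Jun, an immediate early gene of the AP-1 factor (3248 bp, fold 8.08), and Fzd8, a Wnt receptor gene (3229 bp, 6.34). Cdh2, which encodes N-cadherin, had 3134 bp, Tsc22d2 3002 bp, Fat3, a giant cadherin of neurite patterning, 2920 bp, Cpeb2 2904 bp and Rims2, a gene of the presynaptic active zone, 2795 bp. The peaks of this set nearest to Esp38 and Gm20783 were 3142 bp and 3124 bp wide. That of Esp38 lay 106071 bp from the gene and had a fold of only 2.56. Unique mapping of reads at these wide peaks was not tested. The overlapping CPN peaks were narrower at Jun, with 2148 bp in CPN 1 and 1069 bp in CPN 2, and at Adgrl2 (2185 bp and 1520 bp). They were wider at Esp38 (4248 bp and 4243 bp) and slightly wider at Fat3 (2942 bp and 2963 bp), and at Cdh2 and Gm20783 they were wider in CPN 1 (3185 bp and 3190 bp) and narrower in CPN 2 (1016 bp and 2003 bp). Over whole lists the median width was 203 bp in CPN 2, 293 bp in CPN 1 and 279 bp in CSMN.

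Long genes, several of them synaptic, carried the largest numbers of CSMN peaks inside the body. A summit lay inside 61.6% of all protein-coding genes, with a median of 1 and 10% of genes at 6 or more. Nav2, which encodes a protein of neurite growth, had 88 summits, Tenm4, a teneurin adhesion gene, 86, and Ptprn2, a receptor phosphatase gene of secretory vesicles, 75. The postsynaptic scaffold genes Dlg2 and Magi2 had 69 and 62, Arhgap26 60, the presynaptic adhesion gene Nrxn3 57, and Gse1, Bach2 and Nfia 55, 55 and 54. Counting peak bp in place of summits gave the same 10 genes, led by Ptprn2 with 33974 bp. Dlg2 had more summits in CSMN than in CPN 1 (55) and CPN 2 (63), although 31 of its 69 summits were absent from both CPN lists and 32 had a −log10 q of at least 5. At Nav2 the CPN numbers were 134 and 136 and at Nfia 90 and 114. Summits went with gene length. Of 227 genes over 500 kb long, the median had 23 summits and 1 gene had none, Skint5, a gene of the skin and thymus. Of 2429 genes over 100 kb, 56 had no CSMN summit. Position along the body was counted for 29528 summits in 7948 genes, a part of the 49732 summits inside gene bodies. These were spread nearly evenly, with 9.24% to 11% in each of 10 equal stretches from the start to the other end. The even spread is that of this part only, and it cannot be set against the counts of peaks at gene starts.

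By density, the order of genes was another one. Among genes of at least 20 kb the median was 4.04 summits per 100 kb. Pax6, a regulator of cortical progenitors, had 44.0 per 100 kb from 13 summits, against 9 and 11 in CPN 1 and CPN 2, and Cntfr, the receptor gene of ciliary neurotrophic factor, had 40.4. The other genes of the top 10 were Gm15319 (50.9), A530032D15Rik (49.6), Sp110 (42.4), Sfi1 (42.0), Cwc22 (41.4), 4930467E23Rik (40.6), Sp140 (40.0) and Zfp992 (39.2). In several of these the CPN counts were far lower. A530032D15Rik had 11 CSMN summits and 0 in both CPN lists, Sp140 had 23 against 3 and 5, and Sp110 17 against 2 and 5, on chromosome 1 between 85088139 and 85645040. The bodies of Sp110 and Sp140 overlap, and a summit in the overlap was counted for both genes. The stretches with the most peaks, in which neighbours were at most 5 kb apart, held 67 peaks over 94.5 kb of chromosome Y and 43 peaks over 68.6 kb at Speer4d on chromosome 5. At Gm8126 and Gm8127 on chromosome 14, 37 of the 40 peaks of such a stretch were absent from both CPN lists. Whether reads map uniquely in these stretches was not tested.

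Absence from CPN went with weakness and with distance from genes. Of all CSMN peaks, 24009 (24.5%) overlapped no peak of either CPN list, 65.0% overlapped peaks in both and 10.5% in exactly 1. The absent peaks had a median fold of 2.34 and a median width of 178 bp, compared with 3.56 and 384 bp for peaks found in both CPN lists. A −log10 q of at least 5 was reached by 14.4% of them and by 68.4% of the others. The absent share was 6.05% at gene ends (5.69 to 6.42), 24.9% inside genes, 28.1% at 10 to 100 kb and 38.6% at over 100 kb (37.9 to 39.4). Within the CPN pair, the CPN 2 list lacked 23.2% of the CPN 1 peaks and the CPN 1 list lacked 30.3% of the CPN 2 peaks. Of the CSMN peaks, the CPN 1 list lacked 29.6% and the CPN 2 list 29.8%. The share of CSMN peaks missing from a CPN list thus lay between those of the CPN pair, and both CPN lists searched were longer than the CSMN list. The strongest absent peaks had folds of up to 16.8, with Gm51598 and Gm51572 on chromosome 8 as the nearest genes. Another lay inside Ppp2r2b (8.76). Further ones were far from their nearest gene, at 89700 bp from Nus1 (10.2), 23587 bp from Apba2 (8.94) and 64777 bp from Hrh1 (8.42).

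Chromosomes X and Y stood apart from the autosomes. The share of peaks absent from both CPN lists lay between 15.6% (X) and 28.3% (chromosome 1) on all chromosomes but Y, where it was 44.9%. Y held 594 CSMN peaks, against 333 in CPN 1 and 373 in CPN 2, and 2.02% of the CSMN peaks there were at a gene end. X held 1.69 peaks per protein-coding gene, against 2.57 to 6.77 on the autosomes, and had the highest share at gene ends, 30.3%, and the highest median fold, 3.99. The X shares of the list were 1.66% in CSMN and 1.52% and 1.41% in CPN 1 and CPN 2, and the sex of the animals is not stated. Chromosomes 11 and 7, rich in genes, followed in the share of peaks at gene ends, with 24.8% and 23.1%.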

How the data were processed

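ATAC-seq peak lists of 1 CSMN and 2 CPN libraries were analysed, 3 in all. Tools listed in the submitters' processing notes are MACS2 2.2.7.1, BWA 0.7.17 and bedtools 2.29.2, with the build mm10 and no role for each. The sources used here do not give read filters, the transposase shift or any excluded regions. The deposited lists give for each peak the authors' fold (a ratio at the summit), −log10 p and −log10 q, a score that was 10 times the −log10 q for 99.9% of the CPN 1 peaks and 100.0% of those in the other lists, and the summit offset. Lists carry the name of 1 library each. Folds from different lists are given side by side with no test, since their scale can differ between lists.

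Peaks were placed with Python 3.11.15, pandas 2.3.3 and numpy 2.4.6 against RefSeq genes and start sites of GRCm38.p6. Overlap needed 1 bp, and the numbers of overlapping peaks differed by 0 from bedtools 2.31.1. Placement was tested on simulated intervals. The 13 gene lists held 265 entries, of which 263 were found by current symbol and 2 by an older one. A gene-end peak was the highest fold within 1 kb. Shares have Wilson 95% intervals, and no p-value was computed. The members and lists were chosen with earlier results of these data known. Named were the 5 markers, the genes nearest to the 10 highest, 10 widest and 10 highest absent peaks, the 10 genes with most summits, density or peak bp, and in each list the 4 highest gene-end folds and, where 5 or fewer, the members without one. Further names are said to be picked later, and a few genes that the rule names are not reported here. Alternatives changed the q threshold, window, gene set, ranking, overlap rule and CPN lists.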

Additional observations from a re-analysis of the deposited data

Results flagged for a closer look

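Peaks on unplaced scaffolds entered none of the comparisons with genes. The CSMN list held 199 such peaks, against 107 in CPN 1 and 139 in CPN 2, although both CPN lists were longer. On the unplaced scaffolds of chromosome 1 it held 93, against 4 and 6. These counts were singled out because they lie outside the main measurement and above the CPN lists, with 1 CSMN library and no test.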

How the results depend on the processing

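The share of CSMN peaks at gene ends was 14.1% with a window of 500 bp, 20.3% with 2 kb, 15.6% by the summit alone, 22.7% with genes of every type and 25.5% among peaks with a −log10 q of at least 5. That threshold left 54115 peaks with a median width of 445 bp, put 12.6% over 100 kb from a gene, gave 61.8% of genes a gene-end peak and left 6.40% of peaks absent from both CPN lists. With genes of every type, 59.9% of peaks had the summit inside a gene, against 50.8% in the report, and 3.29% lay over 100 kb away. Without provisional gene names the summit was inside a gene for 49.7%, and 69.8% of genes had a gene-end peak. That share of genes was 62.7% with 500 bp and 71.3% with 2 kb. In the strongest of the 10 groups, the gene-end share was 68.8% when ranked by −log10 p, 64.7% with 500 bp and 69.3% with 2 kb. The share absent from both CPN lists was 38.5% when each peak had to cover 50% of the other, 32.4% with the CPN lists cut to the CSMN length, 29.6% to 29.8% with 1 CPN library left out, and 24.3% without chromosome Y and scaffolds, a choice made after seeing the data. All 39 gene list counts under other thresholds and windows stayed within 1.5 times the reported count. Lists with nearly all members counted could not have risen beyond that bound. Genes of other organs went from 9 to 6 with a −log10 q of at least 5 or with 500 bp, and to 12 with 2 kb. Microglia genes went from 7 to 5 and 9 under the same settings. The single CSMN library could not be left out. No paired analysis was possible because CSMN had 1 library and the groups share a single replicate number. Read totals are unknown, so what depth limits could not be measured, and weak or absent peaks carry the least certainty.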
